A study of Mus musculus with 4 samples.

Results

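The genes described here encode the enzymes of glycolysis and glycogen turnover, the enzymes at the branch between lactate and mitochondrial oxidation of pyruvate, and the carriers that move lactate and glucose across the cell membrane, measured in the cerebral cortex of Ndrg2-/- and wild-type mice. The members were the 39 named genes of these steps to which the transcript accession of at least 1 non-control probe could be matched. They make up 39 of the 15768 genes tested and are covered by 58 of the 27427 probes that could be given a gene symbol. NDRG2 is a cytoplasmic protein that is abundant in astrocytes. The series asked which cortical transcripts differ when the gene is absent.

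Total RNA came from the cerebral cortex of adult male mice, 3 months old, on a C57BL/6N background, and 4 two-colour microarrays were hybridised. On each array the wild-type RNA was labelled with Cy3 (green) and the Ndrg2-/- RNA with Cy5 (red), and array 1 to array 4 hold replicate 1 to replicate 4. The dyes were never exchanged, so a genotype difference and a dye effect specific to a probe cannot be told apart. The labels do not name the deleted part of the gene, nor do they say if RNA of several animals was combined. Each p-value reflects only how far these 4 arrays differed among themselves, with the variance of each probe moderated toward that of all probes tested. The Ndrg2 probe read 0.11, 0.37, 0.40 and 0.38 on the log2 scale, knockout over wild type, with a mean of 0.32 ± 0.14 (SD, n = 4 arrays; adjusted p = 0.0173). It was therefore not lower in the libraries labelled Ndrg2-/-, and where the probe lies relative to the deletion is not given in the sources used here. All directions below rest on the labels. Median spot intensities were 94 to 122 in green and 283 to 335.5 in red, and 70.67% to 73.48% of probes were well above background in either channel. The precision is limited by the number of arrays.

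Glycolysis breaks glucose down to pyruvate, and its committed step is the phosphorylation of fructose 6-phosphate by phosphofructokinase, which is tuned by fructose 2,6-bisphosphate from the PFKFB enzymes. In the cortex glycogen is stored mainly in astrocytes. According to the astrocyte-neuron lactate shuttle model, astrocytes turn glucose and glycogen into lactate, release it through monocarboxylate transporters such as MCT1 and MCT4, and neurons take it up through MCT2 and oxidise it. Hexokinases trap glucose in the cell, lactate dehydrogenases interconvert pyruvate and lactate, and pyruvate dehydrogenase, restrained by its kinases, commits pyruvate to the mitochondria.

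All 39 genes were measured well enough to be tested, and 12 differed between the genotypes. The transcripts of 9 genes were higher in Ndrg2-/- cortex (Gapdh, Eno1, Aldoc, Hk1, Pfkfb3, Slc2a3, Pdk2, Pygm and Gbe1) and those of 3 were lower (Slc16a7, Pgam2 and Pfkp), at an adjusted p below 0.05 (limma, Benjamini-Hochberg over all probes tested). Over all genes tested, 9.12% were higher, 5.83% were lower and 15.0% differed in either direction. The changes were small: Pfkfb3 was the only member whose mean passed the study's 1.5-fold criterion, a size that 0.273% of all genes reached by the mean, and no member passed it on all 4 arrays. The median log2 ratio of the members was 0.06, against 0.01 for all genes, and it was 0.07, 0.09, 0.06 and 0.02 on arrays 1 to 4. Of the 39 members, 25 had a positive mean and 14 a negative one, against 8652 and 7116 of all 15768 genes. An unadjusted p below 0.05 was found for 14 members, a count for which no share of all genes was computed. All 12 that differed did so in the same direction on all 4 arrays. The test was made on these same 4 values, so the shared sign is not separate evidence. Counting probes, 13 of the 57 tested probes of these genes differed, against 13.0% of all probes. Because the cortex was measured in bulk, fewer cells of a type and less RNA per cell cannot be told apart.

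**Figure D1:**
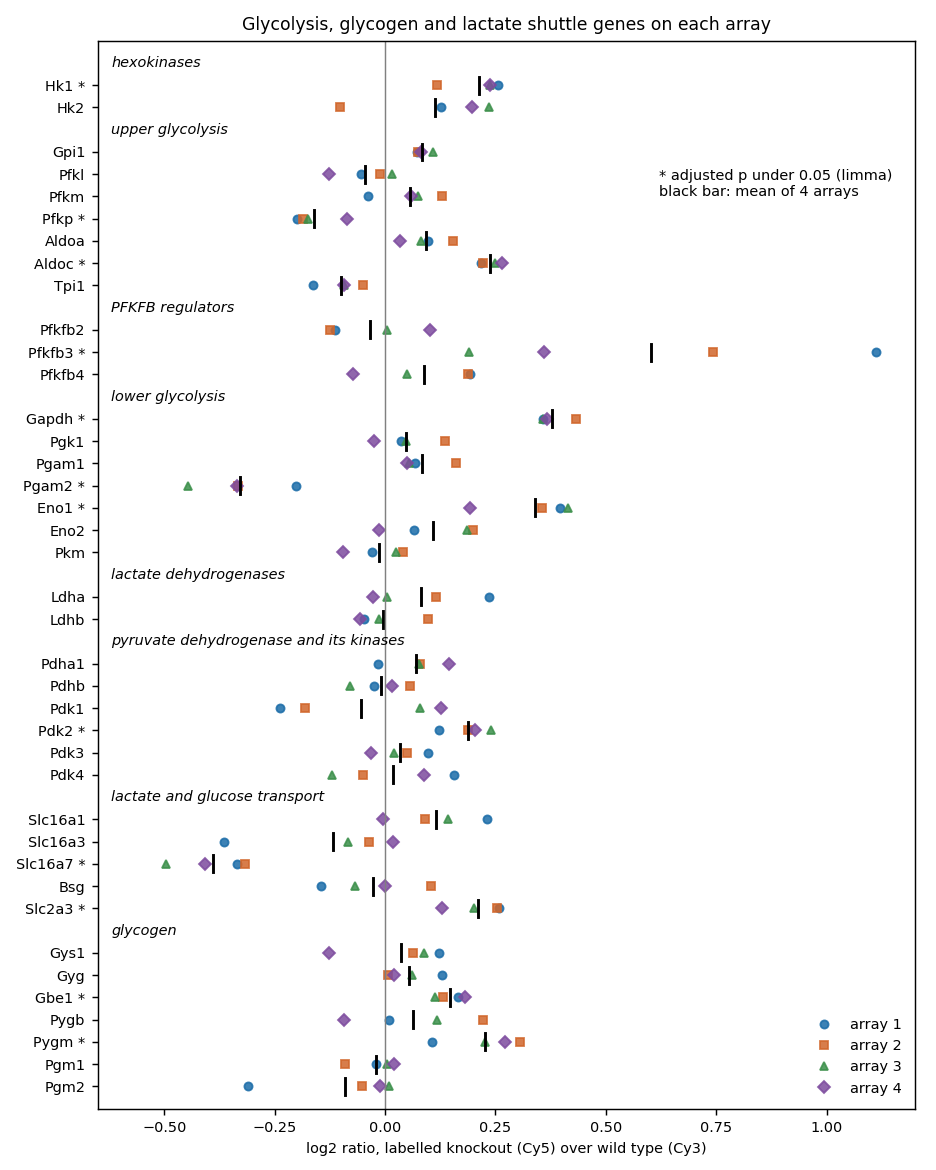
Log2 ratio of Ndrg2-/- over wild type for each of the 39 genes, grouped by role, on the brightest probe of the gene. Coloured points are the 4 arrays, black bars their mean and asterisks an adjusted p below 0.05; the 4 points of Slc16a7 lie between -0.50 and -0.32 and those of Gapdh between 0.36 and 0.43, whereas the points of Pfkfb3 spread from 0.19 to 1.11.

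Glucose enters neurons mainly through GLUT3, encoded by Slc2a3, and is then phosphorylated by hexokinase. Slc2a3 read 0.26, 0.25, 0.20 and 0.13, a mean of 0.21 ± 0.06 (SD, n = 4; adjusted p = 0.0207), which is a 1.16-fold higher level. In the deposited processed signals its wild-type values were 4311, 4315, 3833 and 3666 and its knockout values 5152, 5075, 4431 and 3955, higher in the knockout channel on each array. The call of Slc2a3 was lost in these signals (adjusted p = 0.0532). Hk1, the main brain hexokinase, read 0.26, 0.12, 0.24 and 0.24, with a mean of 0.21 ± 0.06 (adjusted p = 0.0209). Hk2, the inducible hexokinase, read 0.13, -0.10, 0.24 and 0.20 and did not pass the test (adjusted p = 0.237). The call of Hk1 was lost when any 1 array was left out (adjusted p 0.0518 to 0.0833), and that of Slc2a3 without array 1, 2 or 3 (0.0740, 0.0927 and 0.0752). A second Hk1 probe had a mean of 0.08, which did not differ from that of the brightest (adjusted p of the difference 0.279).

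The 7 genes of upper glycolysis had a median of 0.06, and of these Aldoc was higher, Pfkp was lower and 5 did not pass the test. Aldoc, the aldolase typical of astrocytes in the forebrain, read 0.22, 0.22, 0.25 and 0.26 (mean 0.24 ± 0.02, n = 4; adjusted p = 0.0113). Its 4 values lie close together, but in the processed signals of the scanner software the mean was 0.06 (adjusted p = 0.341), and the call was also lost without array 2 (0.0572) or array 3 (0.0520). The aldolase Aldoa, shared by muscle and neurons, read 0.10, 0.15, 0.08 and 0.03 and did not pass the test (adjusted p = 0.160). The 3 phosphofructokinase subunits gave different values. Pfkp, the platelet-type subunit, read -0.20, -0.19, -0.17 and -0.09 (mean -0.16 ± 0.05; adjusted p = 0.0401), negative on all 4 arrays. The liver-type subunit Pfkl read -0.06, -0.01, 0.02 and -0.13 (adjusted p = 0.500), and the muscle-type subunit Pfkm -0.04, 0.13, 0.08 and 0.06 (adjusted p = 0.403), so that only the values of Pfkp share a sign. Pfkm was printed 10 times on each array, and the SD over these spots was 0.021 to 0.030, smaller than the spread of 0.07 between arrays. The second Pfkp probe had the same mean, -0.16 (adjusted p = 0.0819), but the call of the brightest was lost without array 1, 2 or 3 (0.123, 0.140 and 0.132) and the mean was 0.01 with median centring in place of loess. The isomerases Gpi1 (mean 0.08, adjusted p = 0.162) and Tpi1 (-0.10, adjusted p = 0.130) did not pass the test. The other probes of these genes read 0.12 and 0.05 for Gpi1 and -0.04 for Tpi1.

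Among the 3 enzymes that make and remove fructose 2,6-bisphosphate, Pfkfb3 was higher. Pfkfb3, whose product strongly favours synthesis of this activator, read 1.11, 0.74, 0.19 and 0.36, a mean of 0.60 ± 0.41 (SD, n = 4; adjusted p = 0.0313) or 1.52-fold. In processed signals the wild-type values were 1118, 1317, 1382 and 1187 and the knockout values 2542, 2270, 1547 and 1528. The knockout was higher on every array, and arrays 1 and 2 were much farther apart than arrays 3 and 4. Without array 1 the mean was 0.43 (adjusted p = 0.0645), and without array 2 it was 0.55 (0.122). A second, dim probe assigned to another transcript of Pfkfb3 had a mean of 0.14 (adjusted p = 0.210) and differed from the brightest by -0.46 (adjusted p of the difference 0.0234). In the processed signals, to which the offset of 50 was not added, the second probe had a mean of 0.41 (adjusted p = 0.246). The brightest probe had a mean of 0.62 there and lost its call (adjusted p = 0.0838), and the difference of -0.22 did not pass the test (adjusted p 0.165). Pfkfb2 (-0.11, -0.12, 0.00 and 0.10) and Pfkfb4 (0.19, 0.19, 0.05 and -0.07) had values of either sign. A further Pfkfb4 probe was not well above background in either channel on any array and was not tested.

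In lower glycolysis Gapdh and Eno1 were higher, Pgam2 was lower and the 4 remaining genes did not pass the test. The brightest probe of Gapdh, the dehydrogenase that yields the NADH of the pathway, read 0.36, 0.43, 0.36 and 0.37, a mean of 0.38 ± 0.04 (SD, n = 4; adjusted p = 0.00221) or 1.30-fold. Its processed signals were 115994, 109955, 112050 and 101899 in wild type and 128393, 128916, 131278 and 117173 in knockout, which do not overlap, but the mean log2 ratio in these signals was smaller, at 0.20 (adjusted p = 0.0452). Gapdh is also represented by 6 further probes, and these did not behave like the brightest one. In order of falling brightness their means were 0.11, 0.13, 0.11, -0.06, -0.07 and -0.03, and none passed the test (adjusted p 0.0813 to 0.677). Each of the 6 lay below the brightest probe, by 0.25 to 0.45 on the log2 scale, and all 6 differences passed the test (adjusted p 0.00313 to 0.0140, a comparison chosen after the values were seen). In the processed signals the probes lay below the brightest by 0.15 to 0.29, and 5 of the 6 differences passed the test, the exception having an adjusted p of 0.0734. With the mean over all 7 probes, Gapdh stood at 0.08 (adjusted p = 0.176). The Gapdh value thus depends on the probe, and no probe sequences were used here.

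Eno1, the ubiquitous enolase, read 0.40, 0.35, 0.41 and 0.19, with a mean of 0.34 ± 0.10 (n = 4; adjusted p = 0.00885). Its processed signals were 44636, 46393, 43283 and 38622 in wild type and 55214, 54954, 54361 and 41801 in knockout. The knockout was higher on every array, least on array 4, and without array 2 the adjusted p was 0.0532. The neuronal enolase Eno2 read 0.06, 0.20, 0.19 and -0.01 and did not pass the test (adjusted p = 0.171). Pgam2, the muscle form of phosphoglycerate mutase, read -0.20, -0.33, -0.45 and -0.33 (mean -0.33 ± 0.10; adjusted p = 0.00946), and its processed signals fell from 529, 442, 392 and 329 to 439, 325, 272 and 254. It was lower in the knockout on all 4 arrays, although the ranges of the channels overlap, and the call was lost without array 2 (0.0546). The main brain form Pgam1 read 0.07, 0.16, 0.06 and 0.05 (adjusted p = 0.198). Of 9 skeletal and cardiac muscle markers, 4 were bright enough to be tested, none passed the test and their median was -0.13; the part of muscle RNA in the Pgam2 value was not tested. Pgk1 (mean 0.05 ± 0.07) and Pkm (-0.01 ± 0.06), the enzymes of the ATP-forming steps, did not pass the test.

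**Figure D2:**
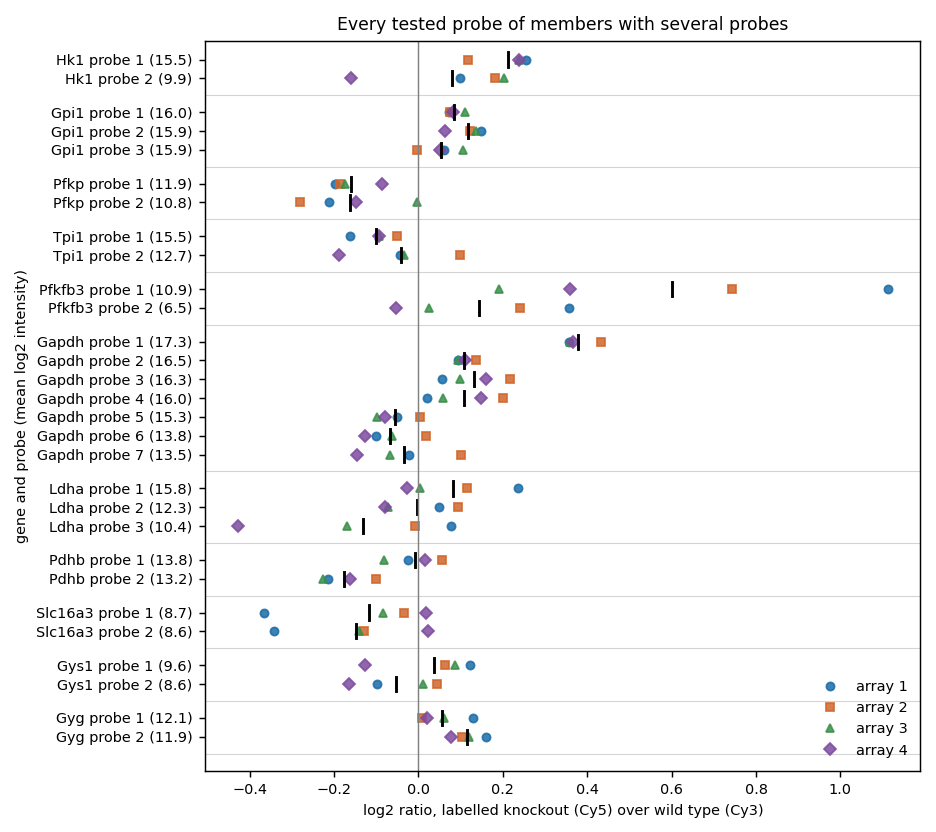
Log2 ratio of Ndrg2-/- over wild type for every tested probe of the 11 genes with several tested probes, ordered within a gene from brightest to dimmest; coloured points are the 4 arrays, black bars the means, and the number after each probe is its mean log2 intensity. Only the brightest Gapdh probe stands at 0.38, the other 6 lie between -0.07 and 0.13, and the probes of Pfkp share a mean of -0.16.

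Over all 11 genes with several tested probes there were 18 pairs of the brightest probe with another, and 9 pairs differed, of which 6 share the brightest Gapdh probe. Over all genes 15.9% of such pairs differed. The signs matched in 12 of the 18 pairs (66.7%), against 61.1% of all 5006 pairs. The other pairs that differed were those of Pfkfb3, of the dimmest Ldha probe (-0.21, adjusted p of the difference 0.0489) and of Pdhb (-0.17, adjusted p of the difference 0.0317). In the processed signals 6 pairs differed, 5 of Gapdh and that of Pdhb, against 492 of all 5006 pairs. The Ldha difference had an adjusted p of 0.225 there.

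Several members are among the brightest features of the array. Aldoa, Aldoc, Gapdh, Gpi1 and Eno1 belong to the brightest 1% of genes, and 3 of these 5 were higher. In that class 52.5% of 158 genes were higher and 4 were lower, and its median log2 ratio was 0.18, against -0.01 in the next 9% and 0.02 in the remainder. In the scanner software's processed signals the median of the same class was 0.07. The shift was not uniform over the bright class when genes were binned by log2 intensity and ratio, each bin named by its lower edge. In the intensity bin at 17.25, which holds Gapdh, the ratio bins ran from 0.2 to 0.55. In the bin at 17, which holds Aldoc, they ran from 0 to 0.45. In the bin at 15.75, which holds Eno1, they ran from -0.3 to 0.3, and Eno1 was the only gene in the highest. The part of this shift in the Gapdh, Aldoc and Eno1 values was not tested.

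**Figure D3:**
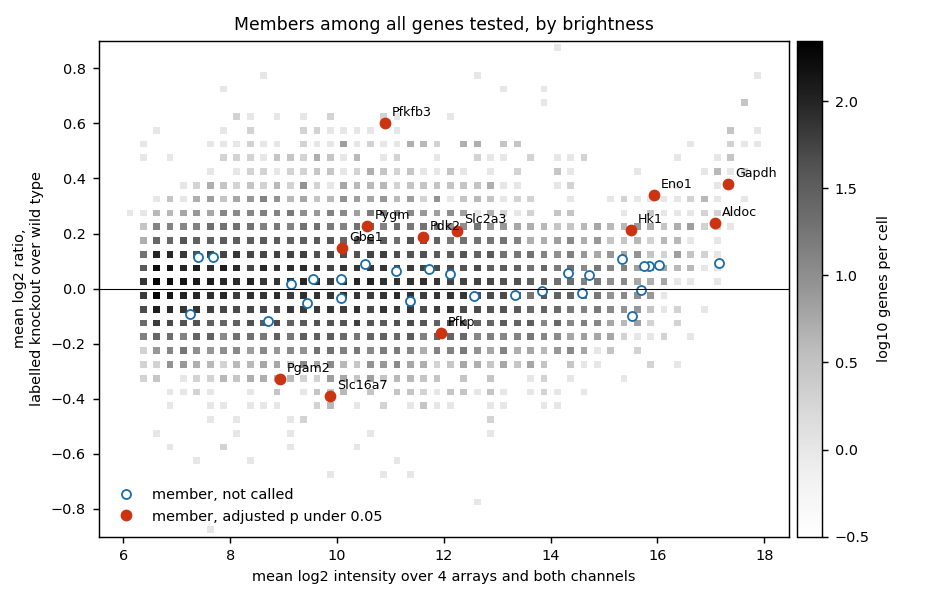
Mean log2 ratio of Ndrg2-/- over wild type against mean log2 intensity, with the number of tested genes per cell in grey (log10 scale, the few genes beyond the y axis not drawn) and the 39 members as points, filled where the adjusted p was below 0.05. Gapdh (log2 intensity 17.3), Aldoc and Eno1 lie at the bright end, where the median of the brightest 1% is 0.18. Within that class the ratios rise with brightness, and the cells at an intensity of 17.25 run from 0.2 to 0.55 by their lower edges. Slc16a7 and Pgam2 lie among dimmer genes.

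At the lactate step, the carrier gene Slc16a7 was lower, while neither lactate dehydrogenase and no other lactate carrier passed the test. Slc16a7 encodes MCT2, the high-affinity carrier by which neurons take up lactate. It read -0.33, -0.32, -0.50 and -0.41, a mean of -0.39 ± 0.08 (SD, n = 4; adjusted p = 0.00388; 95% confidence interval -0.49 to -0.29), which is 1.31-fold lower. The processed signals were 694, 726, 1014 and 885 in wild type and 524, 565, 696 and 646 in knockout, lower on every array, with an overlap at the edge of the ranges. The call held without any 1 array (adjusted p 0.0147 to 0.0237) but not when the pairing of the channels on an array was ignored (0.244). The latter fit also normalised mean intensities between arrays. Slc16a1, which encodes MCT1 of glia and endothelium, read 0.23, 0.09, 0.14 and 0.00 (adjusted p = 0.149). Slc16a3, encoding the astrocytic MCT4, read -0.37, -0.04, -0.08 and 0.02 (adjusted p = 0.261), a spread set mainly by array 1, and its second probe had a mean of -0.15. Bsg, the chaperone that brings MCT1 and MCT4 to the membrane, read -0.15, 0.10, -0.07 and 0.00 (adjusted p = 0.737). Ldha, whose subunit favours lactate formation, read 0.24, 0.12, 0.00 and -0.03 (adjusted p = 0.326), and its further probes had means of -0.00 and -0.13. Ldhb read -0.05, 0.10, -0.01 and -0.06 (adjusted p = 0.944), with a confidence interval of -0.11 to 0.09.

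**Figure D4:**
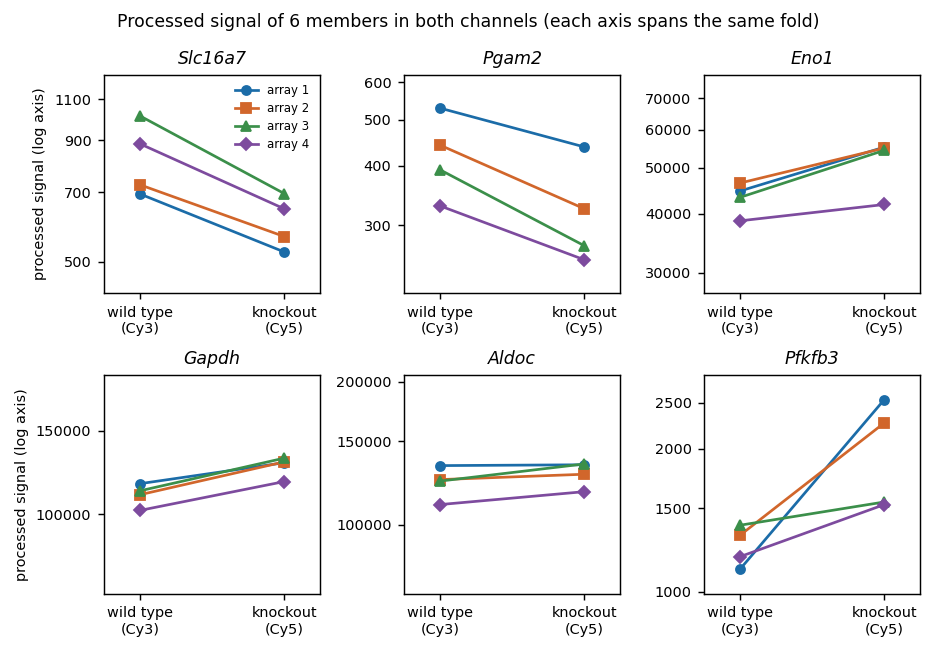
Deposited processed signals of 6 genes in the wild-type (Cy3) and Ndrg2-/- (Cy5) channels, with a line joining the channels of each of the 4 arrays; the y axes are logarithmic and span the same fold. The lines of Slc16a7 and Pgam2 slope down on all 4 arrays, and those of Pfkfb3 slope up, from 1118 to 2542 on array 1 and from 1382 to 1547 on array 3.

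Of pyruvate dehydrogenase and its kinases, Pdk2 alone passed the test. Pdk2, a kinase that switches the complex off, read 0.12, 0.19, 0.24 and 0.20 (mean 0.19 ± 0.05, n = 4; adjusted p = 0.0254), and the call was lost when any 1 array was left out (0.0575 to 0.104). Pdk1, a kinase known as a target of hypoxia signalling, read -0.24, -0.18, 0.08 and 0.13 (adjusted p = 0.633), negative on arrays 1 and 2 and positive on the others. Pdk3 and Pdk4 had means of 0.03 and 0.02, with adjusted p of 0.603 and 0.849. The catalytic subunits Pdha1 (0.07 ± 0.07, adjusted p = 0.287) and Pdhb (-0.01 ± 0.06, adjusted p = 0.909) did not pass the test on their brightest probes. The second Pdhb probe read -0.21, -0.10, -0.23 and -0.16 (adjusted p = 0.0332), and this call was lost when any 1 array was left out (0.0639 to 0.125). Pdhb is the only member on the chromosome that carries Ndrg2.

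The 7 genes of glycogen turnover had a median of 0.05, and of these Gbe1 and Pygm were higher and 5 did not pass the test. Pygm, the muscle-type phosphorylase that astrocytes also express, read 0.11, 0.31, 0.23 and 0.27 (mean 0.23 ± 0.09, n = 4; adjusted p = 0.0227). Its processed signals were 1111, 868, 958 and 763 in wild type and 1186, 1083, 1109 and 889 in knockout, higher in the knockout on each array. The call of Pygm was lost in these signals (adjusted p = 0.0626). The brain-type phosphorylase Pygb read 0.01, 0.22, 0.12 and -0.09 and did not pass the test (adjusted p = 0.475). Gbe1, the branching enzyme, read 0.17, 0.13, 0.11 and 0.18 (mean 0.15 ± 0.03; adjusted p = 0.0431). The call of Gbe1 was lost without any 1 array (0.0897 to 0.127), and that of Pygm without array 2, 3 or 4 (0.0983, 0.0789 and 0.0575). Gys1, the glycogen synthase of brain, read 0.12, 0.06, 0.09 and -0.13 (adjusted p = 0.660), and Gyg, the glycogenin that primes it, had a mean of 0.05 ± 0.05. Their second probes had means of -0.05 and 0.12. The phosphoglucomutases Pgm1 (-0.02 ± 0.05) and Pgm2 (-0.09 ± 0.15), here under their current mouse names, did not pass the test.

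The other genes of these pathways were read from lists of enzymes, carriers and regulators. None of 14 tested glycolytic isozymes passed the test (median -0.00). Of 8 pentose phosphate pathway genes 3 were lower and none higher, with a median of -0.12 and array medians of -0.11, -0.09, -0.10 and -0.13. Tkt, the transketolase, had a mean of -0.25 ± 0.04 (adjusted p = 0.0113; 0.0604 without array 2), and G6pdx, which opens the pathway, one of -0.15 (adjusted p = 0.0483), a call lost without any 1 array. With median centring in place of loess Tkt was at -0.0073 (adjusted p = 0.895) and G6pdx at -0.00047 (0.993), and G6pdx also lost its call in the processed signals (0.102). Of 8 genes of pyruvate entry into mitochondria 2 were lower, the pyruvate carboxylase Pcx (-0.19, adjusted p = 0.0270) and the E2 subunit Dlat (-0.16, adjusted p = 0.0491), and both calls were lost without any 1 array. Both were also lost in the processed signals (0.0516 and 0.0979) and with median centring, where Pcx was at -0.0091 (0.870) and Dlat at 0.00093. Of 20 genes of the glycogen machinery 1 was lower, the glycogen-targeting phosphatase subunit Ppp1r3e, at -0.34 ± 0.06 (adjusted p = 0.00462). Its probe is dim, with a mean log2 intensity of 6.48, and the size of its value moved with the processing, to -0.56 with an offset of 16, -0.98 with median centring and -1.40 in the processed signals, each past the threshold. Where Ppp1r3e and the other listed genes lie relative to Ndrg2 was not examined.

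Of 15 further glucose and monocarboxylate carriers 1 was higher and 2 were lower. Slc2a1, encoding the GLUT1 of endothelium and astrocytes, read 0.38, 0.08, 0.67 and 0.86 (mean 0.50 ± 0.34, n = 4; adjusted p = 0.0325), a wide spread in which array 2 was lowest, and its call was lost without array 1 (0.0744), array 3 (0.104) or array 4 (0.0706), in the processed signals (0.0776) and with an offset of 16 (0.0546). Slc2a8 had a mean of -0.23 (adjusted p = 0.0295), a call lost without array 1 (0.0992), array 2 (0.118) or array 4 (0.0710), in the processed signals (0.0702) and with median centring, where the value was -0.057 (0.399). Of 12 hypoxia-induced regulators 2 were lower, Ankrd37 (-0.26, adjusted p = 0.0367) and the mitophagy receptor gene Bnip3 (-0.18, adjusted p = 0.0267), and the median was -0.00. The call of Bnip3 was lost without any 1 array and that of Ankrd37 without array 1, 3 or 4. Both were lost in the processed signals (0.0569 for Ankrd37 and 0.0725 for Bnip3), and Bnip3 was at 0.081 with median centring and at -0.0046 with the mean over its probes.

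Markers of the cell types that the tissue could hold were read beside these groups. All 8 markers of cortical excitatory neurons were bright enough to be tested, and 2 were higher (median 0.17). None of the 12 astrocyte markers passed the test (median 0.14, range -0.04 to 0.35), 2 of 12 general neuronal markers were higher (median 0.05), and 1 of 8 endothelial markers was higher (median 0.03). The general neuronal markers include the member Eno2, and Slc17a7 is in both neuronal lists. Of 8 microglial markers 2 were higher, Cx3cr1 (0.19) and Tmem119 (0.27), with a median of -0.01. Of 9 oligodendrocyte markers Ermn was lower (-0.29) and the median was -0.02, with array 3 lowest at -0.29. None of 5 tested blood markers passed the test, and their array medians were -0.39, -0.11, -0.13 and 0.39. Of 10 markers of meningeal fibroblasts, 9 were higher, with a median of 0.50 and array medians of 0.50, 0.45, 0.25 and 0.68. Their part in the values of Slc2a1, Pfkfb3 and the other genes above was not tested.

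Promoter sequences were examined because many glycolytic genes are known targets of hypoxia-inducible factors, which bind ACGTG or GCGTG. Both strands were searched in the 250 bases before each annotated start in RefSeq (GRCm38.p6), and a CACGTG, which reads the same on either strand, can count on both. A match was present in 40 of 52 windows of 36 members (76.9%), against 51.5% of windows of the genes tested and 38.6% of all promoters; alternative starts of 1 gene can share sequence. It was present in 75.0% of windows of the members that differed and in 77.8% of those of the members that did not. Slc16a7, Bsg and Slc2a3 were not in the table. The windows shown are those at the starts numbered 1 in the table, with a second one for Pfkfb3, of 4 genes that were higher, of Ldha, which did not pass the test, and of Pgam2, which was lower. They are written 5′ to 3′ on the strand of the gene, with the matches in capitals. The Gapdh window is chr6:125165774-125166023 on the reverse strand. The Aldoc window is chr11:78322823-78323072 on the forward strand. The Eno1 window is chr4:150236458-150236707 on the forward strand. The Pfkfb3 start 1 window is chr2:11553930-11554179 on the reverse strand. The Pfkfb3 start 2 window is chr2:11502091-11502340 on the reverse strand. The Ldha window is chr7:46845554-46845803 on the forward strand. The Pgam2 window is chr11:5803797-5804046 on the reverse strand.
Gapdh: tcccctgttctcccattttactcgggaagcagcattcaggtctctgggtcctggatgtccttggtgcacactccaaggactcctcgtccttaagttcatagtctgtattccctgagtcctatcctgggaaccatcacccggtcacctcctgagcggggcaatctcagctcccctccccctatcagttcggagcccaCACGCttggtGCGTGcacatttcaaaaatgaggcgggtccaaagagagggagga
Aldoc: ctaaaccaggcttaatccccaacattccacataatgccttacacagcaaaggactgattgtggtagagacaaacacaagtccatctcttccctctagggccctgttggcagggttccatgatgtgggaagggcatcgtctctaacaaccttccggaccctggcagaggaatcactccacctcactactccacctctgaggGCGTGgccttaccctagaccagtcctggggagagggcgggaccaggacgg
Eno1: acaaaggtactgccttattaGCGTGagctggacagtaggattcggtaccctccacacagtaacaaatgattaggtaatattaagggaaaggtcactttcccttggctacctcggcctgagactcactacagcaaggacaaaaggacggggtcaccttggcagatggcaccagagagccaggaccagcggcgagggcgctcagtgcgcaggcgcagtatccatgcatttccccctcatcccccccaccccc
Pfkfb3 start 1: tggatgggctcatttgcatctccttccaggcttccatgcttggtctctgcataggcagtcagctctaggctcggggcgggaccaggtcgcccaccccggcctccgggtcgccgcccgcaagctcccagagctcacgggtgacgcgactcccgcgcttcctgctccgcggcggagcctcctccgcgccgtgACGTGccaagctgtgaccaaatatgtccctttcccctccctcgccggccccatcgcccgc
Pfkfb3 start 2: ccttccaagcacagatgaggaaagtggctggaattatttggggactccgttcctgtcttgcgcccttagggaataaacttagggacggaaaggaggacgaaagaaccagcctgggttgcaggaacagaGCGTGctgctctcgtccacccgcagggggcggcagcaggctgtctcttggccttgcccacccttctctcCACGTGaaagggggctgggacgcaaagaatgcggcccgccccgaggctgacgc
Ldha: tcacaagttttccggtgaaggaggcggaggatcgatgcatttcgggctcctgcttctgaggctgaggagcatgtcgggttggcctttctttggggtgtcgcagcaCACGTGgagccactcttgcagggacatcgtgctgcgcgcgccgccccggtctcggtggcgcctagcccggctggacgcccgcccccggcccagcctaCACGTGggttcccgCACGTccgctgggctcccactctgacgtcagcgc
Pgam2: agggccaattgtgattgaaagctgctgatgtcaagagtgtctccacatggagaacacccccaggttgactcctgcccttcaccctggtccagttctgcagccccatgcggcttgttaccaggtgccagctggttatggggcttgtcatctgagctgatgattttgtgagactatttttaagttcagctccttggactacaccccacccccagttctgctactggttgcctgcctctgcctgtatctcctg
The Ldha window shown held 5 matches and the Pgam2 window held 0. Of the windows at start 1 not shown, those of Hk1 and Gbe1, which were higher, held 0. Those of Pdk2 and Pygm, also higher, held 2 each, and that of Pfkp, which was lower, held 3. A second Ldha start held 1 match, a second Aldoc start 1, and 2 further Eno1 starts 2 each, beside 1 in each of the Aldoc and Eno1 windows shown. A match is a run of letters and not a site of binding.

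**Figure D5:**
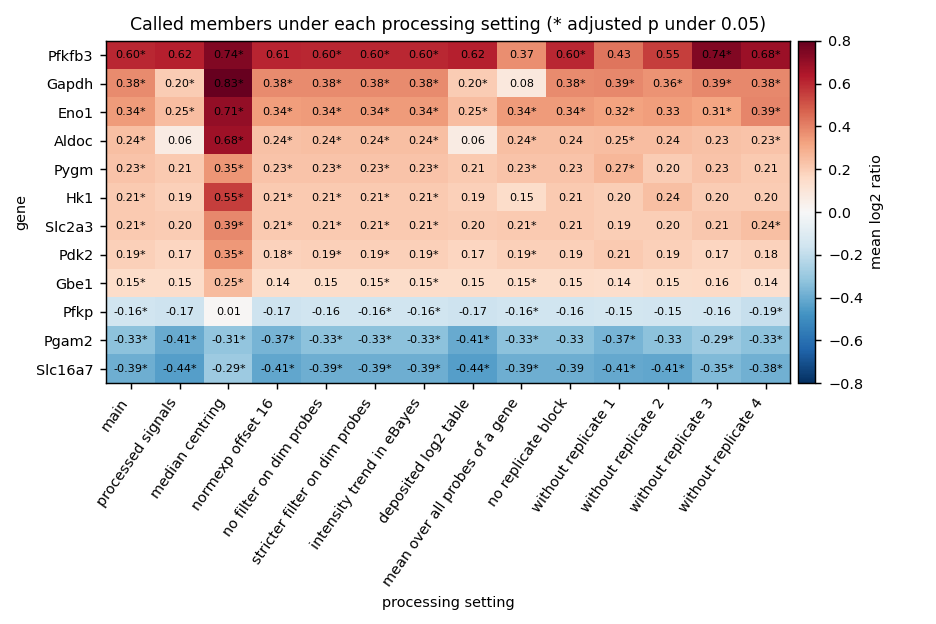
Mean log2 ratio of Ndrg2-/- over wild type of the 12 members that differed (rows) under each way of processing the arrays (columns), printed and coloured in each cell, with an asterisk for an adjusted p below 0.05. Slc16a7 stays between -0.44 and -0.29, Gapdh ranges from 0.08 with the mean over its probes to 0.83 with median centring, and Aldoc drops to 0.06 in the processed signals.

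No member that differed kept its call under every way of processing that was tried. Slc16a7 lost it only where the array pairing was ignored, Gapdh only with the mean over its probes, and Eno1 only without array 2. Gapdh, Eno1, Slc16a7 and Pgam2 kept theirs in the processed signals, and Gapdh, Eno1 and Pfkfb3 where the pairing was ignored. An offset of 16 ended the calls of Pfkfb3, Pfkp and Gbe1, and the mean over probes those of Gapdh, Hk1 and Pfkfb3. The number of members that were higher was 2 with the scanner software's own processed signals and 27 with median centring in place of loess. Of all 15768 genes, 1331 and 9775 passed in these settings in either direction, against 2358 with the processing used above. The cause was not tested.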

How the data were processed

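Intensities per spot were made by the authors with Agilent Feature Extraction (11.0.1.1 per the file headers, 10.7.3.1 per the submitters' processing notes); the deposited log10 ratios are red over green, and the deposited series table holds log2 values. The array annotation is mm9; probes were named by transcript accession through RefSeq (GRCm38.p6).

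Median spot intensities were background-corrected (normexp, offset 50) and normalised within each array by loess, control spots having weight 0. Outlier spots (802 over the 4 arrays) were left out, spots of a probe were averaged, and the 27673 probes whose red, green or both signals were well above background on each of the 4 arrays were kept. The log2 ratio, knockout over wild type, was tested against 0 with limma 3.58.1 (R 4.3.3, lmFit and eBayes, 3 residual and 4.46 prior degrees of freedom). Benjamini-Hochberg adjustment was over all kept probes, with a threshold of 0.05. A gene is its brightest kept probe. The channels of an array were paired by hybridisation; the labels do not say whether same-numbered animals are related. The procedure was tested on simulated data with independent normal noise for each gene. These held no dye effect and no shift with brightness, so they cannot speak to either. Differences between probes of a gene were fitted the same way, also on the processed signals and with offset 16, alternatives chosen after seeing the data.

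Every member and each of its probes was described; of each other list, up to 2 genes that passed, by size, were named. Members and lists were chosen with earlier results of these data known. Alternatives were the processed signals, the deposited table, median centring, offset 16, other filters, an intensity trend, the mean over probes, no pairing, and leaving out each array. For the fit with no pairing, mean intensities were also quantile-normalised between arrays before the channels were separated.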

Additional observations from a re-analysis of the deposited data

Results flagged for a closer look

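In 2 of 57 sets of 4 array values, 1 array stood apart from the other 3 by more than Dixon's 95% critical value; chance alone gives about 1 in 20. For Hk1 it was array 2, at 0.12 against 0.26, 0.24 and 0.24. For the brightest Gapdh probe it was again array 2, at 0.43 against 0.36, 0.36 and 0.37.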

How the results depend on the processing

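Against 9 members higher, 3 lower, 13 probes and 2358 genes of all, the processed signals and the deposited table each gave 2 higher, 4 probes and 1331 genes. These 2 settings hold nearly the same values, with a median over all genes of 0.0065 in both, and are not separate checks. Median centring gave 27 higher, 45 probes, 9775 genes and a member median of 0.24, while the median of all genes moved to 0.06. With no replicate block, so that the pairing was ignored, 3 were higher, 0 lower, 3 probes and 671 genes passed. That fit also held a quantile normalisation of mean intensities between arrays, and the part of that step was not tested. Leaving out 1 array gave 1 to 5 higher, 1 to 3 lower, 2 to 8 probes and 452 to 1543 genes, with fewer samples in each fit; array 2 gave the lowest of each.

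Some members changed sign. In the processed signals and the deposited table Aldoa was -0.10, Ldha -0.0033, Pdhb 0.015, Pdk3 -0.0012 and Pdk4 -0.034. With median centring Ldhb was 0.35, Pkm 0.27, Tpi1 0.24, Pdhb 0.24, Pgm1 0.20, Bsg 0.16, Pfkl 0.11, Pfkfb2 0.072, Pdk1 0.010, Pfkp 0.0072, Slc16a1 -0.076, Hk2 -0.15, the second Pdhb probe 0.034, Bnip3 0.081 and Dlat 0.00093. The difference between the Pfkp probes was 0.0069 in the processed signals. With the mean over probes Gys1 was -0.0077 and Ldha -0.018. Leaving out 1 array moved Pdhb from -0.030 to 0.016, Pdk4 from -0.028 to 0.065, Ldhb from -0.039 to 0.012, Pkm from -0.033 to 0.012, Pgm1 from -0.036 to 0.0015, Bsg from -0.072 to 0.011 and Pdk1 from -0.11 to 0.0083. The cause was not tested.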
